A study of Anas platyrhynchos with 5 samples.

Results

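Small RNA from feather bulbs of ducks (Anas platyrhynchos) holds a group of miRNAs better known from the nervous system: miR-9, miR-128, miR-138 and miR-153. They were chosen by name, as the 7 mature miRNAs of these 4 families (miR-9-5p, miR-9-3p, miR-128-3p, miR-138-1,2-5p, miR-138-1-3p, miR-138-2-3p and miR-153-3p) among 134 mature names in all. The feather bulb is the follicular base of the growing feather, where epithelial, dermal, vascular and, in coloured feathers, pigment cells lie together. The series compares black with white bulbs in 5 small RNA libraries from ducks aged 12 months. The black group has 2 libraries, from the pure black Cui Hei breed and from black bulbs of Kaiya-Liancheng F2 ducks, whose plumage is labelled white-black. The white group has 3 libraries, from the pure white Kaiya and Liancheng breeds and from white bulbs of the same F2 stock. Each library is a pool, of 3 bulbs per duck and then of the birds of 1 breed. The number of birds is not stated, so the p-values measure the spread between these 5 pooled libraries, which differ in breed as well as in colour.

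A miRNA is cut from a hairpin precursor, whose 5p and 3p arms can each give a mature strand of about the same length. Its seed, bases 2 to 8 from the 5′ end, does most of the pairing with target mRNAs. miR-9, which is made from both arms of its hairpin, is known from neural progenitors in vertebrates. miR-128 is abundant in mammalian neurons, miR-138 is known in rodent neurons for limiting the size of dendritic spines, and miR-153 is known in vertebrate neurons for targeting proteins of synaptic vesicle release. Feather melanocytes come from the neural crest, and sensory nerve endings reach the follicle, but none of these miRNAs defines either cell type.

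The listed mature sequences are shown with the seed in capitals, because the 7 miRNAs share a label from the nervous system and not a sequence. 7 different seeds were found, and none of the other 127 names carries any of them.
miR-9-5p: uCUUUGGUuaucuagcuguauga
miR-9-3p: uAAAGCUAgagaaccgaauguaa
miR-128-3p: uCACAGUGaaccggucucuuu
miR-138-1,2-5p: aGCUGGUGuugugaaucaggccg
miR-138-1-3p: gCUAUUUCacuacaccaggguu
miR-138-2-3p: gCUACUUCacaacaccagggu
miR-153-3p: uUGCAUAGucacaaaagugaucau
The mature strands have 21 to 24 bases, against a median of 22.0 over all names. They begin with U in both miR-9 arms, miR-128-3p and miR-153-3p, and 38.1% of all names do.

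A shifted seed match was found for miR-128-3p. The abundant miR-27b-3p, known from vascular and fat tissue of mammals, holds the whole miR-128 seed 1 base further along, so that their seeds share the 6 bases CACAGU. It is shown for that overlap, again with its own seed in capitals.
miR-27b-3p: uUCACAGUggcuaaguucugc
No other listed miRNA held the seed of a neural-type miRNA within 1 base of its place. The number of miR-27b-3p reads for each read of miR-128-3p was 27.3 in Cui Hei and 30.4 in black F2, against 32.5 in Kaiya, 24.3 in Liancheng and 49.0 in white F2. The groups overlap, with white libraries at both ends.

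The 5 listed hairpins are given with both mature arms in capitals, since the balance of the arms and the pair of miR-138 copies turn on them.
mir-9: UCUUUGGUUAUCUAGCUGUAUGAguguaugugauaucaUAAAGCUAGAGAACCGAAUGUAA
mir-128: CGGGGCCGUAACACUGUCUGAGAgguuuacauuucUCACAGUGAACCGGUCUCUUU
mir-138-1: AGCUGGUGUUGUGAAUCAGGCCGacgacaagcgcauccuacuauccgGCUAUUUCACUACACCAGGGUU
mir-138-2: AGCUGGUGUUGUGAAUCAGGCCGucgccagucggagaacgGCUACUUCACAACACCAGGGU
mir-153: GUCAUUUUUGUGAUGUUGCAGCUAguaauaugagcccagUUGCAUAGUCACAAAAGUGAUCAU
The mir-138 copies have the same 23 bases on the 5p arm, and their 3p arms differ at 2 of the first 21 bases, 1 of them in the seed. By predicted folding the listed mir-138-2 hairpin had a free energy of -33.3 kcal/mol and ranked 5 of 73, against a median of -24.4 kcal/mol over all listed hairpins. The other hairpins had -26.9 (mir-153), -24.0 (mir-128), -23.5 (mir-138-1) and -21.3 kcal/mol (mir-9).

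The Kaiya table leaves its miR-9 arms uncertain. Its line named miR-9-5p carries the sequence listed for the 3p arm, and the line named miR-9-3p carries none. Values below take these lines by name. The main miR-9 results that the other reading moves are also given with the arms by sequence, a reading chosen after the data were seen. Where no value by sequence is given, the miR-9 value is by name only. Sums over the miR-9 family are the same under both.

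The neural-type miRNAs made up a small part of every library. Of the reads on mature miRNAs they took 0.282% in Cui Hei (95% Clopper-Pearson interval 0.276% to 0.288%) and 0.290% in black F2 (0.282% to 0.297%). White bulbs had 0.228% (0.224% to 0.233%) in the Kaiya pool, 0.285% (0.277% to 0.294%) in the Liancheng pool and 0.219% (0.213% to 0.224%) in white F2. The white Liancheng library thus stood with the black ones, and Kaiya and white F2 below. The libraries held between 1601329 (Liancheng) and 4269854 (Kaiya) reads on mature miRNAs, so a floor of 3 reads lies at 0.729 to 1.86 CPM, the unit explained next. Without molecular identifiers, intervals and floors cover counting error only.

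miR-128 gave most of these reads, between 54.8% of them in white F2 and 66.2% in Cui Hei. Levels are given as CPM, the read count scaled to a common library size, here adjusted by the trimmed mean of M-values (TMM-normalised). By mean level miR-128-3p stood at 1597 CPM and ranked 35 of 134. miR-9-3p followed with 285 CPM (rank 55), miR-138-1,2-5p with 275 CPM (rank 56), miR-9-5p with 259 CPM (rank 57) and miR-153-3p with 179 CPM (rank 64). By name, both miR-9 arms and miR-138 differed by less than their SDs over the 5 libraries, which were 72.1 CPM for miR-9-3p, 42.8 CPM for miR-138-1,2-5p and 41.0 CPM for miR-9-5p. With the Kaiya arms by sequence the means were 298 CPM for miR-9-3p and 246 CPM for miR-9-5p. The 3p arms of miR-138 were near the floor. The summed level cannot tell fewer cells of a type from less RNA per cell.

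**Figure D1:**
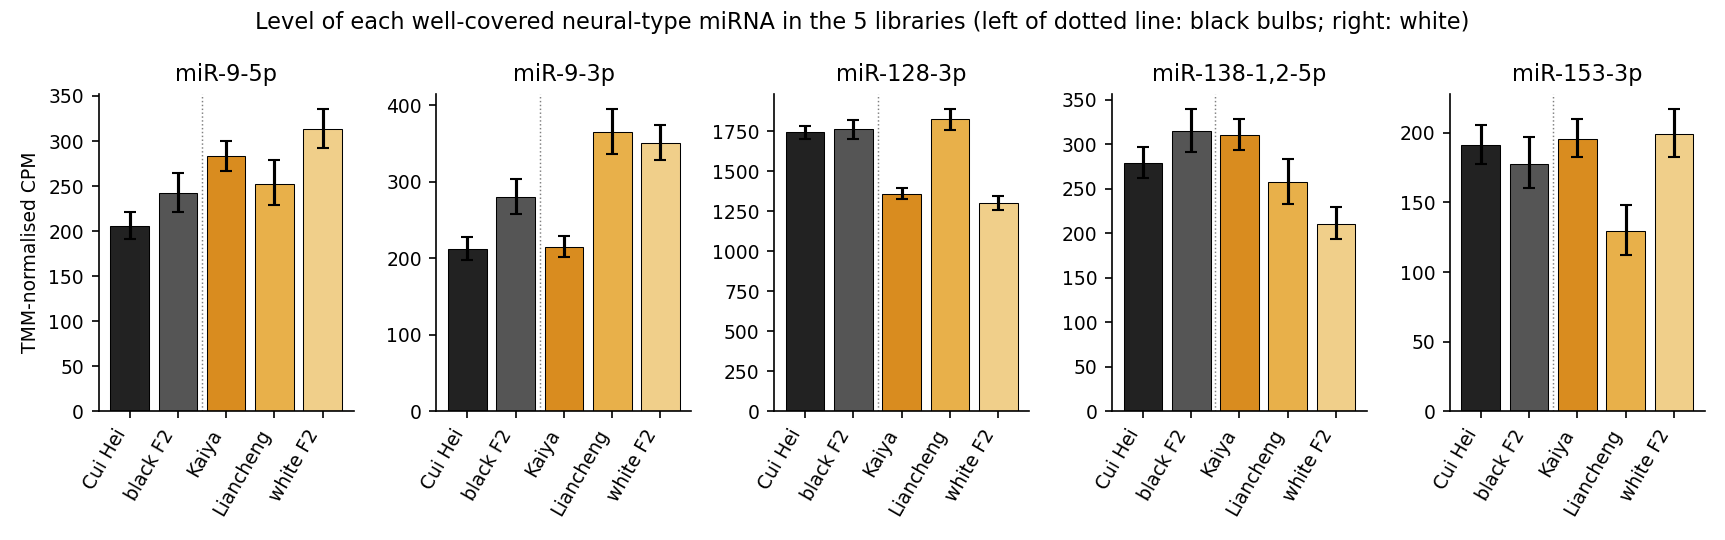
TMM-normalised CPM (vertical axes, each from 0) of the 5 neural-type miRNAs with ample reads in each library, black bulbs left of the dotted line. Bars are single pooled libraries and whiskers 95% Poisson counting intervals. By name, miR-9-5p is lowest in the black libraries, at 206 and 242 CPM, and miR-128-3p is at least 1741 CPM in both black libraries and in Liancheng.

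miR-9-5p, the progenitor-linked 5p strand, was lower in both black libraries than in each white one by the Kaiya names, but not beyond the spread that edgeR estimated. It had 766 reads (206 CPM) in Cui Hei and 503 reads (242 CPM) in black F2, against 1164 reads (283 CPM) in Kaiya, 408 reads (253 CPM) in Liancheng and 821 reads (314 CPM) in white F2. The groups do not overlap, although the gap between black F2 and Liancheng is within the counting intervals. Mean levels were 224 ± 25.9 CPM in the black pools (SD, n = 2) and 283 ± 30.5 CPM in the white pools (SD, n = 3). The log2 fold change was -0.34 ± 0.19 (SE; 95% interval -0.82 to 0.14), with an adjusted p of 0.971 by edgeR's quasi-likelihood test. Of all 114 tested miRNAs 14.9% had groups that do not overlap, 7.89% with black below white, and 1 of the 5 tested neural-type miRNAs is near that background. Without Cui Hei the log2 fold change was -0.20. The separation also rests on how the Kaiya lines are read. Taken by sequence, Kaiya has 215 CPM of miR-9-5p, below black F2, the groups overlap and the log2 fold change is -0.22.

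miR-9-3p, the strand from the other arm, had its lowest level in Cui Hei, and its order among libraries depends on how Kaiya is read. It had 792 reads (213 CPM) in Cui Hei and 581 reads (279.9 CPM) in black F2, against 885 reads (215 CPM) in Kaiya, 589 reads (365 CPM) in Liancheng and 917 reads (350.4 CPM) in white F2. By name, Cui Hei and Kaiya, of opposite colour, shared the lowest level within counting error, and the groups overlap. Liancheng and white F2 were highest and did not differ beyond counting error under either reading. Means were 246 ± 47.5 CPM in the black pools (SD, n = 2) and 310.1 ± 82.6 CPM in the white pools (SD, n = 3), a log2 fold change of -0.33 ± 0.29 (SE; 95% interval -1.06 to 0.39; edgeR adjusted p 0.971). Taken by sequence, Kaiya has 283 CPM of miR-9-3p, above black F2 by less than counting error, so the groups no longer overlap. White pools then average 333 ± 43.7 CPM (SD, n = 3), and the log2 fold change is -0.43, also with an adjusted p of 0.971 by edgeR. Under each reading 1 arm of mir-9 thus has groups that do not overlap, and it is not the same arm. By name, 14.9% of the 114 tested miRNAs had such groups. The sum of both arms, the same under each reading, overlaps between colours. It was 418 CPM in Cui Hei and 522 CPM in black F2, against 498 CPM in Kaiya, 617 CPM in Liancheng and 664 CPM in white F2.

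miR-128-3p, the neuronal miRNA and the most abundant of the group, split the white libraries. It had 6485 reads (1741 CPM) in Cui Hei and 3653 reads (1759.7 CPM) in black F2, against 5592 reads (1359 CPM) in Kaiya, 2943 reads (1823 CPM) in Liancheng and 3409 reads (1303 CPM) in white F2. The black libraries did not differ from each other beyond counting error, and neither did Kaiya and white F2 at the lower level. By TMM scaling Liancheng lay slightly above Cui Hei, with a log2 ratio of -0.066 for Cui Hei over Liancheng (counting interval -0.13 to -0.0027). The order of Cui Hei and Liancheng rests on the scaling. By share of reads it turned, with 0.1865% in Cui Hei, 0.1838% in Liancheng and 0.1837% in black F2. Colour groups thus overlap through Liancheng. Means were 1750.4 ± 13.1 CPM in the black pools (SD, n = 2) and 1495 ± 285 CPM in the white pools (SD, n = 3), a log2 fold change of 0.23 ± 0.20 (SE; 95% interval -0.25 to 0.71; edgeR adjusted p 0.971). Without Liancheng it was 0.42, still with an adjusted p of 0.806 by edgeR.

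miR-138-1,2-5p, the spine-limiting miRNA, was lowest in white F2. It had 1040 reads (279 CPM) in Cui Hei and 654 reads (315 CPM) in black F2, against 1279 reads (311 CPM) in Kaiya, 416 reads (258 CPM) in Liancheng and 552 reads (211 CPM) in white F2. Only the counting interval of white F2 did not overlap that of its neighbour, and the colour groups overlap. As TMM-scaled ratios, Cui Hei also lay below Kaiya (log2 -0.16, counting interval -0.27 to -0.036) and black F2 (-0.17, -0.32 to -0.031). Cui Hei did not differ beyond counting error from Liancheng (0.12, -0.049 to 0.28). By share of reads Cui Hei and Kaiya were level, at 0.02991% and 0.02995%, so their difference rests on the scaling. Means were 297 ± 25.3 CPM in the black pools (SD, n = 2) and 259.8 ± 50.02 CPM in the white pools (SD, n = 3), a log2 fold change of 0.19 ± 0.22 (SE; 95% interval -0.36 to 0.74; edgeR adjusted p 0.971). Without white F2 it was 0.05.

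miR-153-3p, the synaptic vesicle miRNA, was lowest in Liancheng and level elsewhere. It had 712 reads (191 CPM) in Cui Hei and 369 reads (178 CPM) in black F2, against 805 reads (196 CPM) in Kaiya, 209 reads (129 CPM) in Liancheng and 522 reads (199 CPM) in white F2. The 4 higher libraries formed a chain in which neighbours did not differ beyond counting error, and the colour groups overlap. Means were 184 ± 9.48 CPM in the black pools (SD, n = 2) and 175 ± 39.4 CPM in the white pools (SD, n = 3), a log2 fold change of 0.07 ± 0.25 (SE; 95% interval -0.54 to 0.69; edgeR adjusted p 0.971). Its direction turned with upper-quartile scaling (-0.075) and without Liancheng (-0.073).

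The 3p arms of miR-138, passenger strands by their level, were too rare to test. miR-138-1-3p had 3 reads in Cui Hei and 4 in black F2, against 11 in Kaiya, 5 in Liancheng and 2 in white F2, 25 in all, and all neighbours in this order lay within counting error. miR-138-2-3p had 5 reads, all in Cui Hei (1.34 CPM, 95% Poisson interval 0.436 to 3.13), and 0 in the other 4 libraries, where the floor of 3 reads is between 0.729 and 1.45 CPM and, in Liancheng, 1.86 CPM. At this depth a difference was not detectable.

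In all, 0 of the 5 tested neural-type miRNAs passed the test between colours by edgeR, where 1.75% of the 114 tested miRNAs did. DESeq2 and limma-voom also called 0 of them, and 0 were under 0.05 without adjustment, against 3.51% of all tested. The median log2 fold change was 0.07 over these 5 miRNAs and -0.03 over all 114. Of the 5, 3 had a positive and 2, the miR-9 arms, a negative value. The 95% intervals leave room for changes of up to 0.82 on the log2 scale in miR-9-5p and 1.06 in miR-9-3p toward lower levels in black bulbs, and of up to 0.74 toward higher levels in miR-138-1,2-5p.

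**Figure D2:**
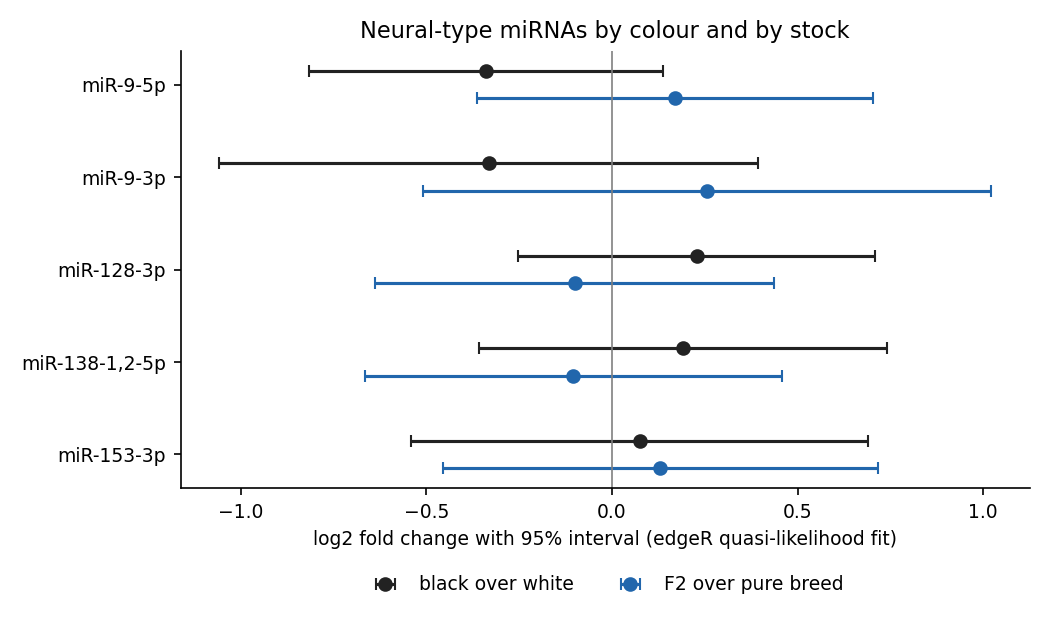
Log2 fold changes (horizontal axis) of the 5 tested neural-type miRNAs between black and white bulbs (black symbols) and between F2 and pure-breed libraries (blue symbols), with 95% intervals of the edgeR fits. Every interval crosses 0; by colour the miR-9 arms, with Kaiya by name, lie at -0.34 and -0.33.

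The stock of the birds, F2 (n = 2) or pure breed (n = 3), is the other grouping the labels allow, and each stock holds both colours. Again 0 of the 5 neural-type miRNAs passed by edgeR, DESeq2 or limma-voom, as did 0% of all 114 by edgeR. Without adjustment 0 of the 5 were under 0.05, against 6.14% of all tested. The highest value was that of miR-9-3p, with 315 ± 49.9 CPM in F2 (SD, n = 2) and 264 ± 87.1 CPM in pure-breed libraries (SD, n = 3), a log2 fold change of 0.26 ± 0.30 (SE; edgeR adjusted p 0.844). It was followed by miR-9-5p at 0.17 ± 0.21 and miR-153-3p at 0.13 ± 0.23, while miR-128-3p had -0.10 ± 0.21 and miR-138-1,2-5p -0.10 ± 0.22 (SE). With the Kaiya arms by sequence the order turns, with 0.31 for miR-9-5p and 0.14 for miR-9-3p. All 5 had F2 and pure-breed levels that overlap, where 28.9% of the tested miRNAs did not overlap.

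Ratios of single libraries have no test, and their counting intervals do not cover the spread between birds. In none of the 7 pairs compared did a neural-type miRNA reach the series' size criterion, a log2 ratio of 1 in either direction. Among all miRNAs with at least 50 reads in a pair, that size was reached by 4.81% for black F2 over white F2, 5.56% for Cui Hei over Kaiya, 8.57% for Cui Hei over Liancheng and 1.89% for Cui Hei over black F2. It was reached by 12.6% for Kaiya over Liancheng, 6.67% for white F2 over Kaiya and 9.71% for white F2 over Liancheng.

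Within the F2 stock, the pair closest in breeding, miR-138-1,2-5p had the largest ratio of the group. It was 0.58 on the log2 scale for black F2 over white F2 (counting interval 0.41 to 0.74), rank 16 by size among 104 miRNAs. miR-128-3p was also higher in black F2, at 0.43 (0.37 to 0.50). The miR-9 arms were lower, at -0.37 (-0.54 to -0.21) for the 5p and -0.32 (-0.48 to -0.17) for the 3p arm, and miR-153-3p had -0.17 (-0.36 to 0.03). The black Cui Hei library differed from the white pure breeds in part with the same signs. miR-9-5p had -0.46 to Kaiya and -0.30 to Liancheng. By sequence in Kaiya the first is -0.065 (-0.21 to 0.076), and that of miR-9-3p to Kaiya is -0.41 in place of -0.017. The level of miR-128-3p was higher than in Kaiya (0.36) and, by TMM scaling, not than in Liancheng (-0.07). miR-138-1,2-5p had -0.16 to Kaiya, a ratio that rests on the TMM scaling, and 0.12 to Liancheng. miR-153-3p had -0.03 to Kaiya and 0.56 (0.34 to 0.79) to Liancheng, against -0.17 in the F2 pair. These Cui Hei ratios share the Cui Hei library.

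Libraries of the same colour also differed. For Kaiya over Liancheng, both white, miR-9-3p had a log2 ratio of -0.76 (-0.91 to -0.61), miR-128-3p -0.42 (-0.49 to -0.36) and miR-153-3p 0.60 (0.37 to 0.82). With the Kaiya arms by sequence miR-9-3p has -0.37 (-0.51 to -0.22). The largest ratio in any of the 7 pairs was that of miR-9-3p for Cui Hei over Liancheng, -0.78 (-0.93 to -0.62). White F2 stood near Kaiya in miR-128-3p (-0.06) and miR-153-3p (0.03), but near Liancheng in miR-9-3p (-0.06). The parental breed that white F2 stood nearer to thus differed between miRNAs. It lay below both breeds in miR-138-1,2-5p (-0.56 to Kaiya and -0.29 to Liancheng). In miR-9-5p white F2 lay above both (0.15 to Kaiya by name and 0.31 to Liancheng).

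**Figure D3:**
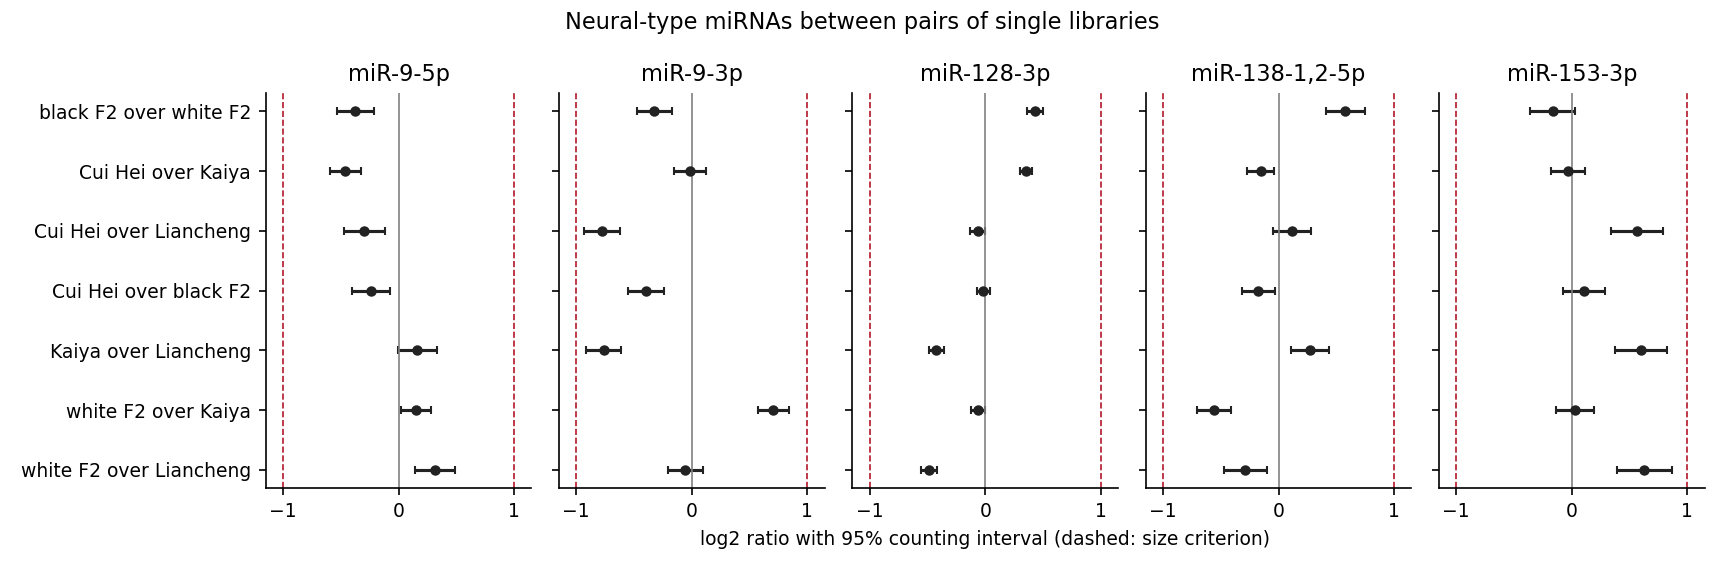
Log2 ratios of TMM-normalised counts (horizontal axis) of the 5 well-covered neural-type miRNAs in 7 pairs of single libraries, with 95% counting intervals. Dashed lines mark the size criterion of 1 in either direction, which no point reaches; the extreme is miR-9-3p at -0.78 for Cui Hei over Liancheng.

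The arms of the 4 families were used in 3 ways. The mir-9 hairpin gave both strands alike: 3662 reads on the 5p and 3764 on the 3p arm over the 5 libraries, a 5p share of 49.3% (95% Clopper-Pearson interval 48.2% to 50.5%). With the Kaiya arms by sequence these become 3383 and 4043 reads and a share of 45.6% (44.4% to 46.7%). By name it was the most balanced of the 69 hairpins with both arms listed, whose rarer arm took a median of 1.00%. It also ranked first with its own Kaiya arms by sequence and all other hairpins by name. Under that reading mir-2131 (rarer arm 45.0%) lay within the counting interval of mir-9. The first rank by sequence is uncertain for another reason, because mir-106-1 (rarer arm 44.1% by name) also has a displaced Kaiya sequence cell. Its arms were not ranked by sequence. The mir-128 and mir-153 hairpins gave mainly the 3p strand, with a 5p share of 3.59% (3.35% to 3.84%) in mir-128 and 0.645% (0.376% to 1.03%) in mir-153. The mir-138 copies gave nearly only the 5p strand, with a 3p share of 0.635% (0.412% to 0.937%) in mir-138-1 and 0.127% (0.0412% to 0.295%) in mir-138-2. Since the 5p reads fit both copies, 3941 being listed under mir-138-2 and 3909 under mir-138-1, these shares divide each copy's own 3p reads by 5p reads that cannot be assigned to it. The copy-specific 3p reads were 25 for mir-138-1 and 5 for mir-138-2.

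**Figure D4:**
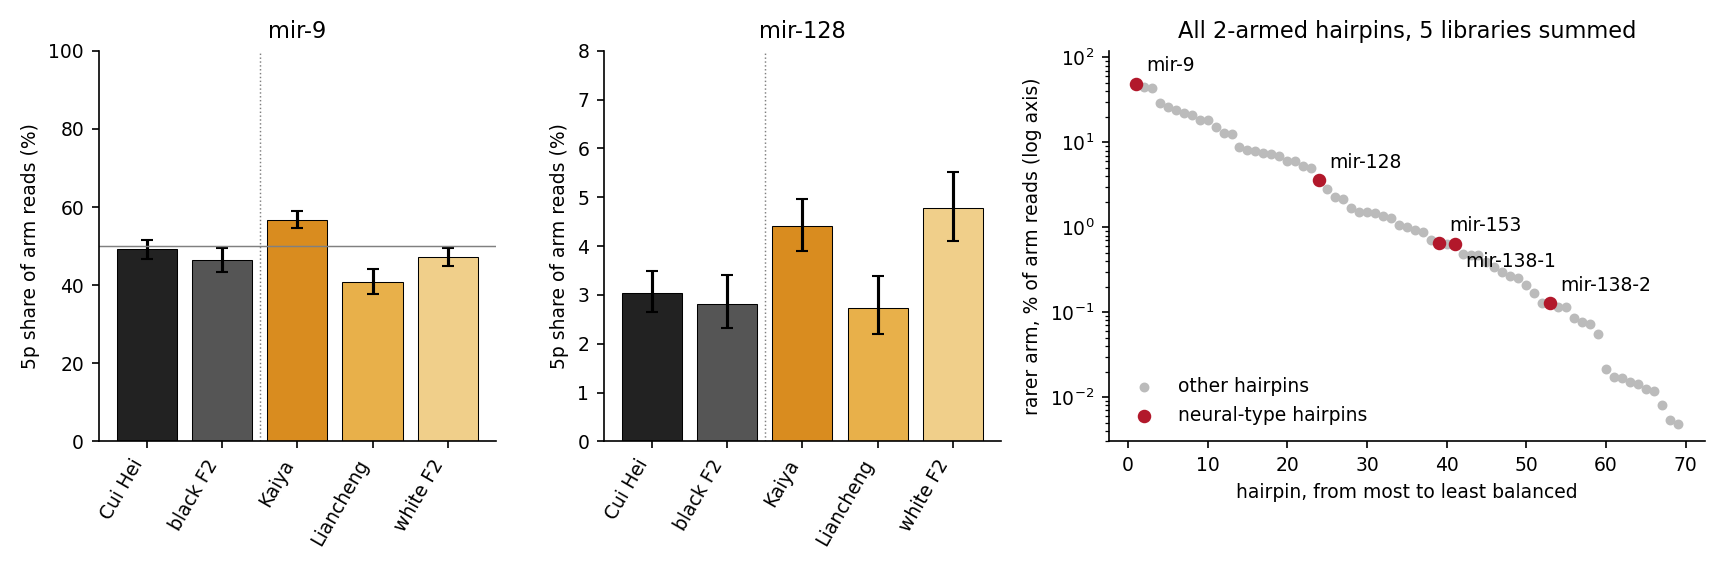
The 5p share of arm reads in percent (vertical axes) per library for mir-9, where the grey line marks an equal split, and for mir-128, with 95% Clopper-Pearson intervals, and at right the rarer arm's share of all 69 hairpins on a log axis. With arms taken by name, mir-9 is the most balanced hairpin, and its Kaiya share of 56.8% alone lies above the line.

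Taken by name, the balance of mir-9 differed most between the white pure breeds. The 5p share was 49.2% (46.7% to 51.7%) in Cui Hei and 46.4% (43.4% to 49.4%) in black F2, against 56.8% (54.6% to 59.0%) in Kaiya, 40.9% (37.9% to 44.1%) in Liancheng and 47.2% (44.9% to 49.6%) in white F2. Black and F2 libraries lay between the white pure breeds. On the log2 scale, 5p over 3p reads averaged -0.13 ± 0.11 in the black pools (SD, n = 2) and -0.10 ± 0.47 in the white pools (SD, n = 3), which differ by -0.03 ± 0.31 (SE; adjusted p 0.943 by limma over 48 hairpins, of which 2.08% passed).

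The Kaiya share is uncertain, because 5 hairpins of that table have a displaced sequence cell, in which the first line shows the sequence of the second arm and the second line shows none. For mir-15c-1, mir-193b, mir-106-1 and mir-138-2 the 5p share taken by name fell within the range of the other 4 libraries, and taken by sequence it did not. For mir-9 the reverse held: the share was 56.8% by name and 43.2% by sequence, where the other libraries ranged from 40.9% to 49.2%. Taken by sequence, the difference between colours is 0.23 in place of -0.03. Which reading is right was not tested.

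The 5p share of mir-128 was highest in Kaiya and white F2. The 5p share was 3.05% (2.65% to 3.49%) in Cui Hei and 2.82% (2.31% to 3.40%) in black F2, against 4.41% (3.90% to 4.97%) in Kaiya, 2.74% (2.19% to 3.39%) in Liancheng and 4.78% (4.10% to 5.53%) in white F2. These are also the libraries with the least miR-128-3p, which is part of the denominator. The rare strand itself, miR-128-5p, stood at 54.8 CPM (95% Poisson interval 47.5 to 62.8) in Cui Hei and 51.1 CPM (41.8 to 61.8) in black F2. White bulbs had 62.7 CPM (55.3 to 70.9) in Kaiya, 51.4 CPM (40.9 to 63.7) in Liancheng and 65.3 CPM (55.9 to 75.9) in white F2. All 5 intervals overlap, and the log2 fold change by colour was -0.18 ± 0.22 (SE; edgeR adjusted p 0.971). On the log2 scale, 5p over 3p reads averaged -5.04 ± 0.08 in the black pools (SD, n = 2) and -4.63 ± 0.45 in the white pools (SD, n = 3), which differ by -0.41 ± 0.31 (SE; adjusted p 0.943 by limma). The groups overlap through Liancheng, where 14.6% of the 48 hairpins had groups that do not overlap.

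Over the 5 libraries the neural-type miRNAs were neither the most even nor the most variable. The SD of log2(CPM + 0.5) was 0.23 for miR-128-3p and for miR-9-5p, 0.24 for miR-138-1,2-5p, 0.26 for miR-153-3p and 0.37 for miR-9-3p, where the median of all 114 tested miRNAs was 0.26 and the highest value, of miR-204-5p, 3.58. Among the 41 tested miRNAs with a mean of 100 to 2000 CPM, which include these 5, the median was 0.23. miR-138-1,2-5p, miR-153-3p and miR-9-3p lay above that median. Counting error alone would give 0.02 for miR-128-3p and 0.05 to 0.07 for the other neural-type miRNAs, all below the observed values. Highest over lowest library, the level differed 1.40-fold for miR-128-3p, 1.49-fold for miR-138-1,2-5p, 1.53-fold for miR-9-5p, 1.54-fold for miR-153-3p and 1.72-fold for miR-9-3p. Reading Kaiya by sequence, the SDs are 0.24 for miR-9-5p and 0.31 for miR-9-3p.

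**Figure D5:**
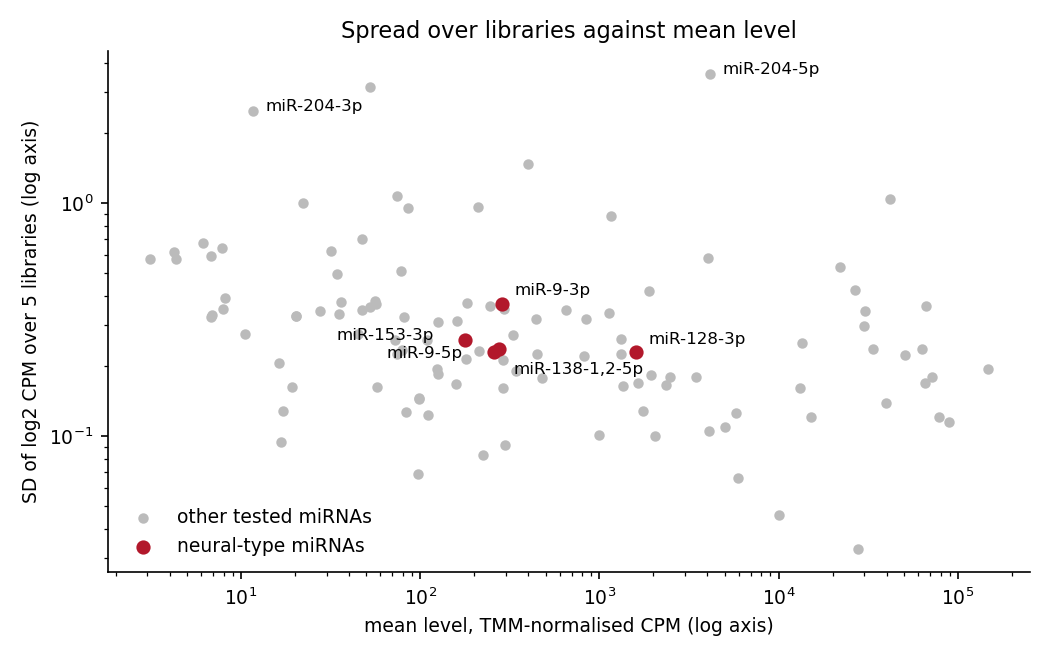
SD of log2(CPM + 0.5) over the 5 libraries (vertical, log axis) against mean TMM-normalised CPM (horizontal, log axis) for all 114 tested miRNAs. The neural-type miRNAs (red) lie between 0.23 and 0.37, within the cloud. The miR-204 arms lie far above it, as does a 5p arm listed without a family number (3.16), which had 0 CPM in Kaiya.

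Differences among the 5 profiles fell on both sides of their usual difference to the other tested miRNAs. Profiles were compared by root mean square difference, each centred on its own mean of log2(CPM + 0.5). It ranged from 0.23 between miR-128-3p and miR-138-1,2-5p to 0.50 between miR-9-3p and miR-138-1,2-5p or miR-153-3p. The median difference to all 113 other tested miRNAs ran from 0.30 for miR-9-5p to 0.37 for miR-9-3p. The arms of mir-9 differed by 0.30 from each other, and by 0.17 with the Kaiya arms by sequence, when the widest difference is 0.44 between miR-9-3p and miR-153-3p. The profiles most like miR-9-5p outside the group were those of the epithelial miR-31-5p (0.11), let-7d-5p (0.12) and miR-146b-2-3p (0.12), against a median of 0.30 over the 113 other tested miRNAs. Nearest to miR-9-3p were miR-449c-2-3p (0.04, at a mean of only 6.85 CPM), miR-181b-1-3p (0.08) and miR-455-1,2-5p (0.13). Other profiles are nearest when Kaiya is read by sequence, miR-1552-5p (0.06), miR-148a-3p (0.06) and miR-148a-5p (0.11) to miR-9-5p, and miR-449c-2-3p (0.13), miR-1552-5p (0.16) and miR-23b-3p (0.17) to miR-9-3p. miR-128-3p was nearest to a 3p arm listed without a family number (0.10), miR-106-2,3-3p (0.10) and miR-106-3-3p (0.10), of which the last pair are overlapping sequences. miR-138-1,2-5p was nearest to miR-193b-3p (0.10), miR-125b-5p (0.13) and another 3p arm without a family number (0.14). miR-153-3p was nearest to miR-2131-5p (0.15), miR-181b-2-3p (0.15) and miR-128-5p (0.17). With 5 libraries such likeness is a description only.

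Of 12 other families known for neural tissue, looked up by name, miR-125b and miR-218 gave 3 tested miRNAs, of which 0 passed by colour or by stock. The others, the neuronal miR-124 among them, gave no values here. miR-218-5p, known from motor neurons in mammals and fish, stood at 235 CPM in Cui Hei and 217 CPM in black F2, against 232 CPM in Kaiya, 229 CPM in Liancheng and 204 CPM in white F2. Its log2 fold change by colour was 0.03 ± 0.18 (SE; edgeR adjusted p 0.971). miR-125b-5p, which many tissues express, had 0.09 ± 0.15, and miR-125b-3p -0.25 ± 0.34 by colour and 0.65 ± 0.22 by stock (SE; edgeR adjusted p 0.627).

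The neural-type miRNAs together reached 2367 CPM (Kaiya) to 2830.4 CPM (Liancheng). The keratinocyte and epithelium list, with lines for 4 of 6 families, summed to 103231 to 116089 CPM in black and 106838 to 128005 CPM in white bulbs. The melanocyte list, represented by miR-204 for 1 of 2 families, summed to 8813 to 11723 CPM in black and 104 to 121 CPM in white bulbs, and both its tested miRNAs rose in black bulbs. The erythroid list, represented by miR-144 for 1 of 2 families, summed to 391 to 455 CPM in black and 79.9 to 277 CPM in white bulbs, with 0 of 2 tested miRNAs called by edgeR. The part of any cell type in the neural-type levels was not tested.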

How the data were processed

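Small RNA of 5 feather bulb pools was sequenced on an Illumina HiSeq 2000 and quantified with miRDeep2 2.1.2, per the series' design text; FastQC and Bowtie 0.12.2 are named in the submitters' processing notes, with a genome build not given in the sources used here. The authors deposited raw read counts per mature miRNA and per hairpin, which were used here, and CPM, which were checked and equal the count over the table's total within 0.005. Where several hairpins list 1 name, its highest count was used once. Hairpins missing from the Kaiya table count as 0. Sequences are those most tables list, since 11 lines have blank or displaced cells.

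edgeR 4.0.16 (R 4.3.3) compared black with white and F2 with pure-breed libraries by the quasi-likelihood test, with TMM scaling, filterByExpr (114 of 134 names, 5 of the 7 neural-type miRNAs) and Benjamini-Hochberg adjustment over all tested, at a threshold of 0.05. limma 3.58.1 tested arm ratios (pseudocount 0.5) of 48 hairpins, those whose arms each had 50 reads or more. Both were run on simulated data with known changes, to check the fits. Those runs do not give the power for changes as small as those of the neural-type miRNAs. The simulated arm ratios had no spread between libraries beyond counting error. Intervals are at 95%. Hairpins were folded with RNAfold 2.7.2. DESeq2 1.42.0, limma-voom, other scalings and filters, summed lines, blocks and leaving out each library were alternatives. The named miRNAs are all 7 by rule, the 3 nearest profiles to each above 10 CPM, seed matches, and members of fixed lists. The miRNAs and lists were chosen with earlier results of these data known.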

Additional observations from a re-analysis of the deposited data

How the results depend on the processing

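No alternative gave a call to a neural-type miRNA: the count stayed 0 by colour and by stock, with adjusted p-values of at least 0.489 over all settings of edgeR, DESeq2 and limma-voom. Of all tested miRNAs 2 were called by colour, the miR-204 arms. With at least 50 reads in every library 1 was called, and miR-204-3p, at 0.76 CPM or less in white bulbs, was then not tested. The arm test called 1 hairpin, mir-204, and 0 with at least 10 reads per arm. It also called 0 with at least 200 reads per arm, a filter that mir-204 cannot pass with 168 reads on its rarer arm. By colour, miR-153-3p turned to -0.075 with upper-quartile scaling and to -0.073 without Liancheng, with a leave-one-out range of -0.073 to 0.17. By stock, the leave-one-out range was -0.047 (without white F2) to 0.27 for miR-9-5p, which was -0.018 without Cui Hei, -0.44 to 0.082 (without white F2) for miR-128-3p, -0.53 to 0.14 (without white F2) for miR-138-1,2-5p and -0.14 (without Liancheng) to 0.23 for miR-153-3p. The arm difference of mir-9 ranged from -0.25 to 0.22 on leaving out a library, turning to 0.050 without black F2 and 0.22 without Kaiya, and was 0.23 with the Kaiya arms by sequence, an alternative chosen after the data were seen. The cause of these turns was not tested. With stock as a replicate block miR-9-5p had -0.38 and miR-9-3p -0.39 by colour; no paired analysis was possible because the library numbers do not pair birds. The median log2 fold change of all miRNAs by colour was -0.16 under upper-quartile scaling and 0.10 under library size alone. Among single-library ratios 39 of 146 alternative values left the counting interval, and 48 of 105 for shares. Depth limits the miR-138 3p arms, with 25 and 5 reads in all.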

Other observations

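miR-138-1-3p had the same 5 read counts as miR-449c-1-3p: 3 in Cui Hei and 4 in black F2, against 11 in Kaiya, 5 in Liancheng and 2 in white F2. Only 3 pairs among the 134 names had equal counts in every library. The others were miR-455-1,2-3p with miR-455-2-3p, which overlap in sequence and had 283 reads each, and miR-215-3p with miR-23b-5p, with 1 read each.

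No neural-type miRNA had an F2 colour ratio opposite in sign to both pure-breed colour ratios, as 22 of 113 tested miRNAs with reads in every library did (19.5%). The hairpins of the group had 1 read outside the listed arms in all, on mir-138-1 in Kaiya.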
